A study of Homo sapiens with 6 samples.

Results

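The 8 genes described here act in lipid peroxidation and in the defences against ferroptosis that work beside GPX4. They are ACSL4, LPCAT3, ACSL3, NOX4, POR, AIFM2 (the gene of FSP1), DHODH and GCH1, chosen by name from the 30015 genes of the deposited table, and all 8 had values. Where the values of single libraries are listed, they stand in the order of replicates 1 to 3. The libraries were made from HMV-II cells, a human vaginal melanoma line, with poly(A) selection. The 3 Vector libraries are labelled wild type for EZH2, and the study's methods describe the control cells as carrying a scrambled shRNA. The 3 shEZH2 libraries came from cells in which EZH2, the catalytic subunit of polycomb repressive complex 2, was knocked down by a stably expressed shRNA. Both constructs were delivered by lentivirus, and the cells were selected with puromycin. The labels give no treatment for either group, so no library is described as coming from cells given erastin or another inducer of ferroptosis. The table heads the control columns shNC and the knockdown columns sh1, so a single shRNA stands for the knockdown. Nothing in the labels says that replicates came from separate cultures, and p-values then measure only the spread between these libraries.

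Ferroptosis is a form of cell death driven by iron and by the oxidation of polyunsaturated acyl chains in membrane phospholipids. ACSL4 and LPCAT3 place such chains in phospholipids, oxidoreductases such as POR and oxidases such as NOX4 supply oxidants, and monounsaturated fatty acids activated by ACSL3 compete with the oxidisable chains. Lipid radicals are quenched by reduced coenzyme Q, which AIFM2 regenerates at the plasma membrane and DHODH in mitochondria, and by tetrahydrobiopterin, whose synthesis starts with GCH1. Melanoma cells in a dedifferentiated state are known for their sensitivity to this form of death.

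Depth ranged from 13400290 to 19128939 reads per library. EZH2 had 483, 437 and 552 normalized counts in the Vector libraries and 237, 247 and 225 in the shEZH2 libraries, so the mean level in the knockdown was 0.482 of that in Vector cells. Of the melanocyte markers, 8 of 8 passed a mean of 10 normalized counts, and their summed level was 75515 to 100744 in Vector and 78898 to 85355 in shEZH2 libraries, although TYR was called lower and MLANA and TYRP1 higher. MLANA was short of the threshold without Vector replicate 2, described next, at 0.39 in place of 0.88 on the log2 scale. Of 4 keratinocyte and 4 leukocyte markers, 2 and 3 had values. Of these, 0 reached that mean, with sums of 2.33 to 12.4 and 10.2 to 33.8 over the 6 libraries. Of 5 fibroblast markers, 2 reached it, COL1A2 (called lower) and LUM (called higher). The fibroblast sum was 176 to 245 in Vector and 249 to 310 in shEZH2 libraries, and its part in the results was not tested. Vector replicate 2 stood apart. Its genes deviated from their group mean by a median of -0.36 (log2) in the shortest quintile of gene length and of 0.28 in the longest, so results that rest on it are also given without it.

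Expressed per kilobase of gene length, the members spanned a wide range. In Vector cells ACSL3 stood highest, at 622 ± 14.9 normalized counts per kb (SD, n = 3), followed by ACSL4 at 289 ± 51.4, AIFM2 at 166 ± 45.0, POR at 160 ± 12.5, DHODH at 74.5 ± 5.25, LPCAT3 at 37.5 ± 11.2, GCH1 at 35.1 ± 4.12 and NOX4 at 14.4 ± 4.06. AIFM2 and POR overlapped between libraries in both groups, and LPCAT3 and GCH1 overlapped in Vector cells. In shEZH2 cells the order of the levels per kb was the same except that GCH1 stood above LPCAT3, at 42.6 to 53.0 against 30.6 to 39.0. NOX4, already the lowest member, was lower again in shEZH2 cells, at 7.61 ± 0.465 normalized counts per kb.

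**Figure D1:**
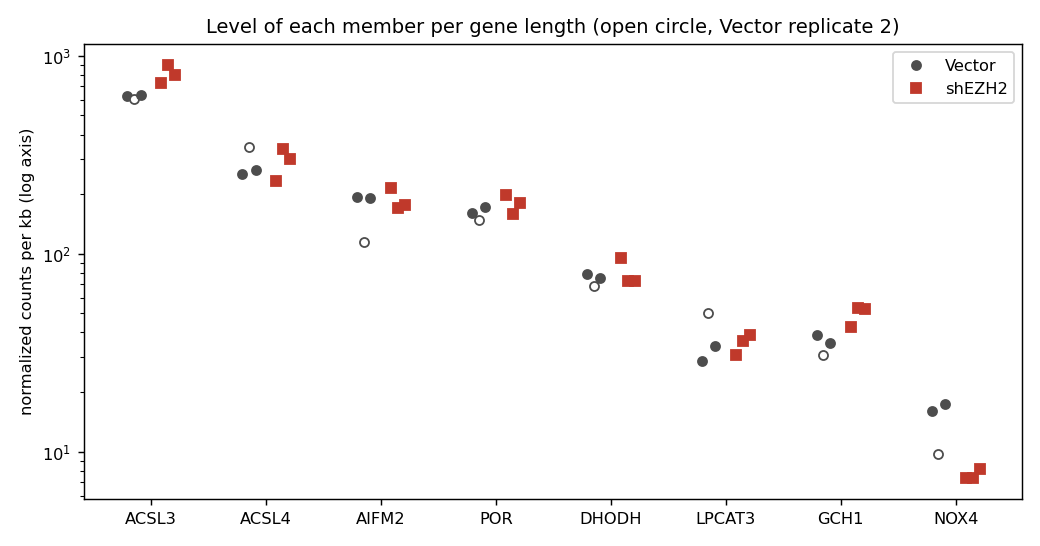
Normalized counts per kilobase of gene length (log axis) of the 8 members in each of the 3 Vector (circles) and 3 shEZH2 (squares) libraries, ordered by the Vector mean. ACSL3 is highest in both groups and NOX4 lowest, and the open circle marks Vector replicate 2.

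The groups were compared with limma on log2(normalized count + 1). Genes with an unadjusted p under 0.05 and a change of more than 1.5-fold (0.585 on the log2 scale) were called, and all fold changes are on this scale, shEZH2 against Vector. Of the 8 members, 1 was called lower (NOX4) and 0 were called higher. Over all 15251 genes tested, 7.07% were called lower, 7.55% higher and 14.6% in either direction. At an unadjusted p under 0.05 with any fold, 3 of 8 members passed (NOX4, ACSL3 and GCH1) against 23.2% of all genes, and in the same 3 the groups did not overlap, against 34.8% of all genes. With Benjamini-Hochberg adjustment over all genes, limma called 0 of 8 members at 0.05 (4.12% of all genes), edgeR 0 of 8 (4.45%) and DESeq2 1 of 8, NOX4 (10.8%). Without Vector replicate 2, 1 of 8 members was called (12.7% of all genes), and limma gave 2, NOX4 and ACSL3, an adjusted p under 0.05 (18.9%). The share of members called was thus near that of all genes.

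**Figure D2:**
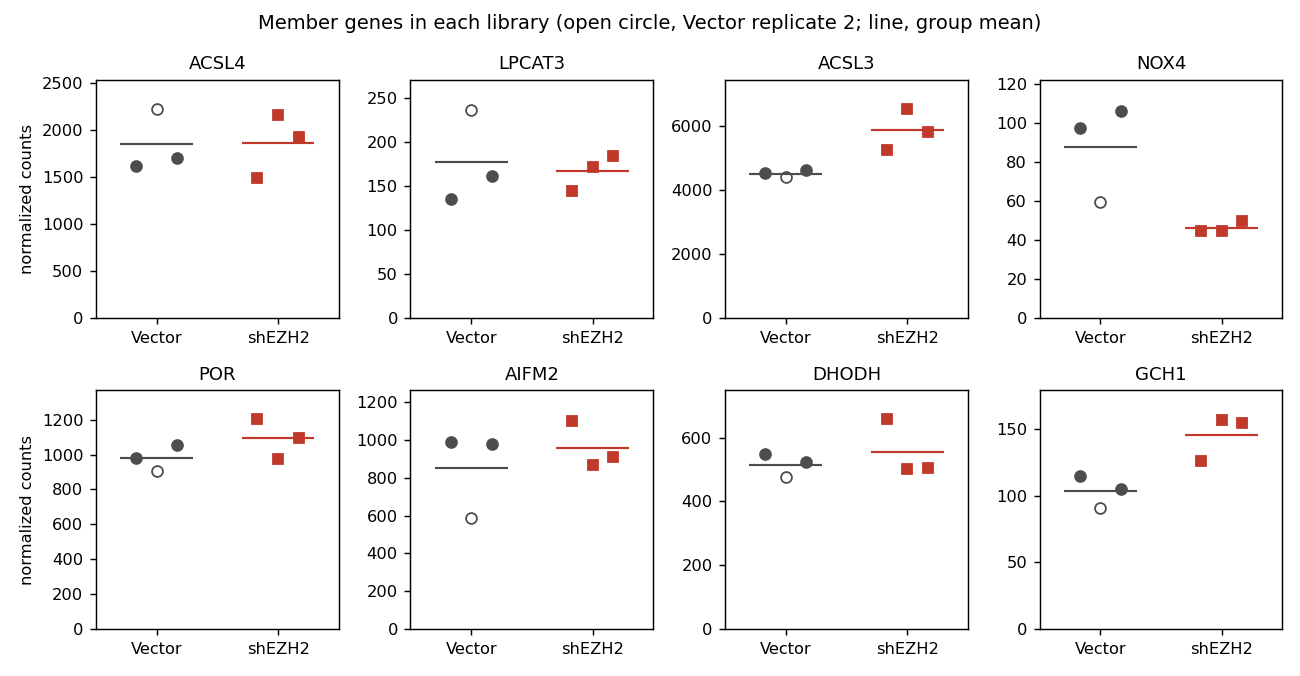
Normalized counts (linear axes from 0) of each member in every library, with the group mean as a line and Vector replicate 2 as an open circle. The groups are apart in NOX4, ACSL3 and GCH1, and overlap in the other 5 members.

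NOX4 (ENSG00000086991, minus strand of chromosome 11 of GRCh38, 89324356 to 89498187) encodes a constitutively active NADPH oxidase that produces hydrogen peroxide. It had 97.3, 59.4 and 106 normalized counts in the Vector libraries and 44.8, 44.7 and 49.6 in the shEZH2 libraries. Every shEZH2 library lay below every Vector library, and Vector replicate 2 lay nearest to them. NOX4 fell to 46.4 ± 2.84 (SD, n = 3) from 87.5 ± 24.7 normalized counts (SD, n = 3), which is -0.86 on the log2 scale (SE 0.26, limma adjusted p = 0.107). With 20 ways to arrange the libraries, a two-sided exact permutation test gave p = 0.1, its lower limit. Without Vector replicate 2 the log2 fold change was -1.11 (adjusted p = 0.00199), and over all alternatives the adjusted p ran from 1.73e-05 to 0.291. The values rest on 47 to 104 reads per library. In bulk RNA, fewer cells with NOX4 transcripts and fewer transcripts per cell cannot be told apart.

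RefSeq gives 3 starts for NOX4, and the windows around them (250 bases before to 50 after the start) differ in base composition. One holds 28 CpG dinucleotides, more than 73.8% of the 35116 human promoter windows in that set (median 14), while 2 CpG dinucleotides are found in each of the others. As background, polycomb complexes are known to favour CpG-rich promoters, and the NOX4 window with 28 CpG dinucleotides is printed. Among the other members with a window, ACSL4 (51), ACSL3 (41), LPCAT3 (30) and AIFM2 (30) hold more and DHODH (25) fewer. A CpG-rich window is thus not particular to NOX4. The windows of ACSL3, the most abundant member, and of AIFM2, which holds an antioxidant response element core, are printed as well. RefSeq windows of GRCh38.p14 were matched for 6 of the 8 members, and POR and GCH1 were unmatched. Capitals mark GC boxes (GGGCGG, bound by SP and KLF family factors), CCAAT boxes (CCAAT) and antioxidant response element cores (TGACNNNGC), searched on both strands. They are held by 45.0%, 34.6% and 13.3% of all the windows.
NOX4, chr11:89491326-89491625, minus strand: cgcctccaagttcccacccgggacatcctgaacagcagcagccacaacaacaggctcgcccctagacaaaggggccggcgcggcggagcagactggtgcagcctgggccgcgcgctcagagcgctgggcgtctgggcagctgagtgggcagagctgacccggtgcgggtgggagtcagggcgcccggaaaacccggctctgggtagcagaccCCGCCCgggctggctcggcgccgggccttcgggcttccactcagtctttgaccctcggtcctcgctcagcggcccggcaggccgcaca
ACSL3, chr2:222860786-222861085, plus strand: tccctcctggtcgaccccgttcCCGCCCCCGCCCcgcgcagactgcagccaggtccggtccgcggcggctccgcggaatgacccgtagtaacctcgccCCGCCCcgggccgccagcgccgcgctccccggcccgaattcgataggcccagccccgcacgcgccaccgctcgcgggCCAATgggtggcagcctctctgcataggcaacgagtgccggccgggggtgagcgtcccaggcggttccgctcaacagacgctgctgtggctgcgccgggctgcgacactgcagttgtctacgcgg
AIFM2, chr10:70132776-70133075, minus strand: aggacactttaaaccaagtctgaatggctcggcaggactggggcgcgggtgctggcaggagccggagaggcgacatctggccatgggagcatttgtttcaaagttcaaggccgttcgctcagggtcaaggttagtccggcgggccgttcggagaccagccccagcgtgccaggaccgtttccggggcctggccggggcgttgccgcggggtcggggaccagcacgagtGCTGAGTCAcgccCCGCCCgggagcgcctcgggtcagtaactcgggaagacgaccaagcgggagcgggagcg

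The NOX4 window holds 1 GC box, 38 bases before the start on the opposite strand (position -38). The ACSL3 window holds 3 GC boxes and 1 CCAAT box and 41 CpG dinucleotides. GC boxes numbered 3 in the ACSL4 window, 5 in LPCAT3, 4 in DHODH and 1 in AIFM2, so at least 1 was found in one window of each matched member. The AIFM2 window is alone among the matched members in holding an antioxidant response element core, at position -22, where its letters overlap an AP-1 site. These matches describe letters only, and binding at these windows was not analysed here.

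Neither ACSL4 nor LPCAT3 passed the threshold. ACSL4 (ENSG00000068366, chromosome X, 109624244 to 109733403, minus strand), which joins arachidonic and adrenic acid to coenzyme A, had 1624, 2230 and 1701 normalized counts in the Vector libraries and 1495, 2158 and 1931 in the shEZH2 libraries. The groups overlapped over most of their range, with means of 1852 ± 330 and 1861 ± 337 (SD, n = 3 each). The fold change was 1.00, with a 95% interval of 0.74 to 1.37 (adjusted p = 0.990 in limma), so a change over 1.5-fold in either direction lay outside the interval. Without Vector replicate 2 the log2 fold change was 0.15 (adjusted p = 0.499).

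LPCAT3 (ENSG00000111684, chromosome 12, 6976186 to 7018510, minus strand), the acyltransferase that inserts polyunsaturated chains into lysophospholipids, had 135, 236 and 161 normalized counts in the Vector libraries and 145, 172 and 184 in the shEZH2 libraries. The top value came from Vector replicate 2, at 160% of the mean of the other Vector libraries, and all shEZH2 libraries lay within the Vector range. The log2 fold change was -0.05 with a 95% interval of -0.60 to 0.49 (adjusted p = 0.901 in limma), and 0.17 without Vector replicate 2. On the opposite strand, LPCAT3 shares 30252 bases with C1S (mean 98.1 normalized counts) and 21243 bases with EMG1 (mean 1430 normalized counts). These are overlaps of whole gene spans, introns included, and the overlap of exons was not examined. The strandedness of the libraries is not given in the sources used here, so reads in any shared exonic bases cannot be told apart.

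ACSL3 (ENSG00000123983, chromosome 2, 222860934 to 222944639, plus strand), the synthetase that activates oleic acid and other monounsaturated fatty acids, had 4513, 4395 and 4610 normalized counts in the Vector libraries and 5247, 6529 and 5797 in the shEZH2 libraries. Every shEZH2 library was above every Vector library, and the Vector libraries lay close together, Vector replicate 2 included. The log2 fold change of 0.37 (SE 0.14, limma adjusted p = 0.171) is 1.29-fold and was short of the 1.5-fold threshold (two-sided exact permutation p = 0.1). Without Vector replicate 2 it was 0.36, with an adjusted p of 0.0309 in limma. Over the alternatives, the adjusted p ran from 0.000479 to 0.413.

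Because ACSL3 and ACSL4 have similar gene lengths (7240 and 6415 bases), their ratio within a library was also taken, a measure chosen after the values were seen. Per gene length, ACSL3 exceeded ACSL4 by ratios of 2.46, 1.75 and 2.40 in the Vector libraries and of 3.11, 2.68 and 2.66 in the shEZH2 libraries. The ratio was higher in each shEZH2 library than in each Vector library, by 0.37 on the log2 scale (two-sided exact permutation p = 0.1). Without Vector replicate 2, which had the lowest ratio, the difference was 0.21, and with array weights it was 0.15.

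POR (ENSG00000127948, chromosome 7, 75899200 to 75986855, plus strand), which passes electrons from NADPH to microsomal cytochromes P450, had 979, 905 and 1057 normalized counts in the Vector libraries and 1206, 974 and 1098 in the shEZH2 libraries. The groups overlapped, since shEZH2 replicate 2 lay below Vector replicates 1 and 3. The log2 fold change was 0.15 with a 95% interval of -0.17 to 0.48 (adjusted p = 0.522 in limma). That interval does not reach a 1.5-fold change.

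AIFM2 (ENSG00000042286, chromosome 10, 70098223 to 70132934, minus strand), the oxidoreductase that regenerates coenzyme Q outside mitochondria, had 990, 586 and 980 normalized counts in the Vector libraries and 1103, 869 and 910 in the shEZH2 libraries. Vector replicate 2 held 59.4% of the mean of the other Vector libraries, which lay within the range of the shEZH2 libraries. The log2 fold change was 0.21 with a 95% interval of -0.33 to 0.74 (adjusted p = 0.603 in limma), and it was -0.045 without Vector replicate 2. NOX4 was likewise low there, at 58.5%.

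DHODH (ENSG00000102967, chromosome 16, 72008588 to 72027664, plus strand) oxidises dihydroorotate in pyrimidine synthesis and reduces coenzyme Q in the inner mitochondrial membrane. It had 548, 476 and 522 normalized counts in the Vector libraries and 659, 502 and 506 in the shEZH2 libraries. Only shEZH2 replicate 1 stood above the Vector libraries. The log2 fold change was 0.10 with a 95% interval of -0.27 to 0.46 (adjusted p = 0.718 in limma), and -0.030 without shEZH2 replicate 1.

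GCH1 (ENSG00000131979, chromosome 14, 54842008 to 54902852, minus strand), the rate-limiting enzyme of tetrahydrobiopterin synthesis, had 115, 90.8 and 105 normalized counts in the Vector libraries and 126, 157 and 155 in the shEZH2 libraries. Every shEZH2 library was above every Vector library, with shEZH2 replicate 1 nearest to them. The means were 104 ± 12.2 and 146 ± 17.3 (SD, n = 3 each). The log2 fold change of 0.49 (SE 0.18, limma adjusted p = 0.163) was short of the threshold, as it was under each alternative except without shEZH2 replicate 1, where it was 0.59. Over the alternatives, the adjusted p ran from 0.00140 to 0.425. GCH1 is the shortest member, at 2951 bases, and its log2 fold change was 0.31 (limma adjusted p = 0.291) with the length trend removed.

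**Figure D3:**
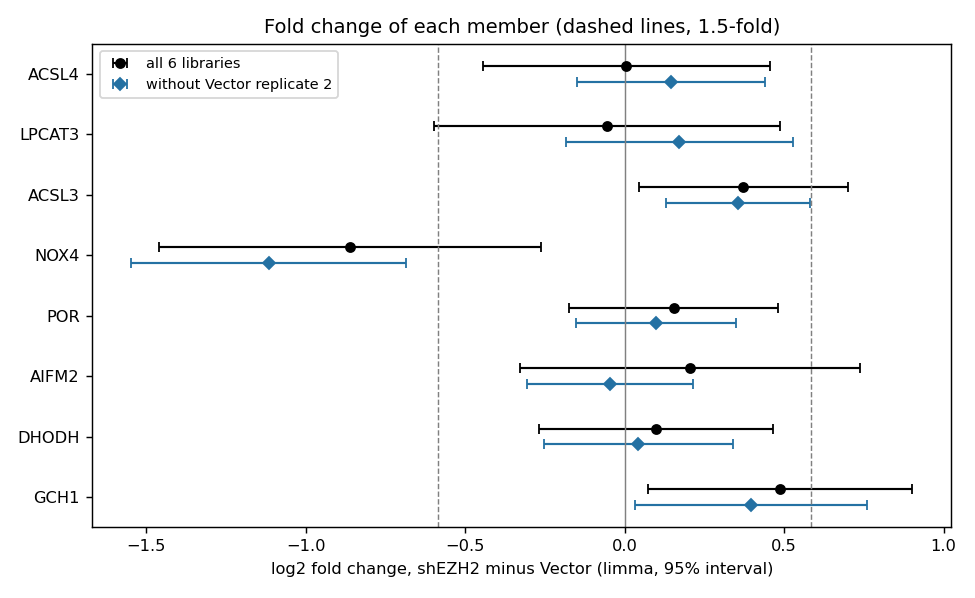
Log2 fold change of each member, shEZH2 minus Vector, from limma with 95% intervals, with all 6 libraries (circles) and without Vector replicate 2 (diamonds). NOX4 alone lies beyond the dashed 1.5-fold line in both fits. The intervals of ACSL3 and GCH1 lie above 0 in both fits, with estimates short of that line.

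The partners of these genes were followed in 9 lists holding 96 genes, of which 75 were tested. Over these lists 8 genes were called higher and 2 lower, a share near the 14.6% of all genes called in either direction. The list counts below stand beside 7.55% of all genes called higher and 7.07% called lower. The median log2 fold change over the lists was 0.21, against 0.04 over all genes tested. Without Vector replicate 2, which was low in short genes, the medians were 0.08 and -0.01. The lists were read by count and median only, with no test of a list as a whole.

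The enzymes that elongate, desaturate and insert acyl chains held 4 of these calls. Of 12 tested, 4 were called higher and 0 lower, and 8 did not pass. MBOAT2, an acyltransferase that favours monounsaturated chains and is known to restrain ferroptosis apart from GPX4, rose to 605, 720 and 684 normalized counts in the shEZH2 libraries from 234, 224 and 220 in the Vector libraries. Its log2 fold change was 1.56 (SE 0.13, limma adjusted p = 0.00379), and 1.55 without Vector replicate 2. MBOAT7, which inserts arachidonic acid into phosphatidylinositol, rose by 0.86 on the log2 scale (SE 0.13, limma adjusted p = 0.0166). SCD, the desaturase that makes oleic acid, had 10848, 16292 and 10842 normalized counts in the Vector libraries and 16475, 19502 and 21376 in the shEZH2 libraries, and rose by 0.61 (adjusted p = 0.148 in limma). Vector replicate 2 came within a small margin of the lowest shEZH2 library, and without it SCD rose by 0.81 (adjusted p = 0.000289). LPCAT4 rose by 0.71 (adjusted p = 0.164), but by 0.40, short of the threshold, without Vector replicate 2. LPCAT1 stood at a log2 fold change of 0.49, and at 0.60, past the threshold, without that library. ACSL1, another long-chain synthetase, had a log2 fold change of 0.03. MBOAT1, the relative of MBOAT2, had one of -0.43 (limma adjusted p = 0.310), and -0.18 without Vector replicate 2.

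**Figure D4:**
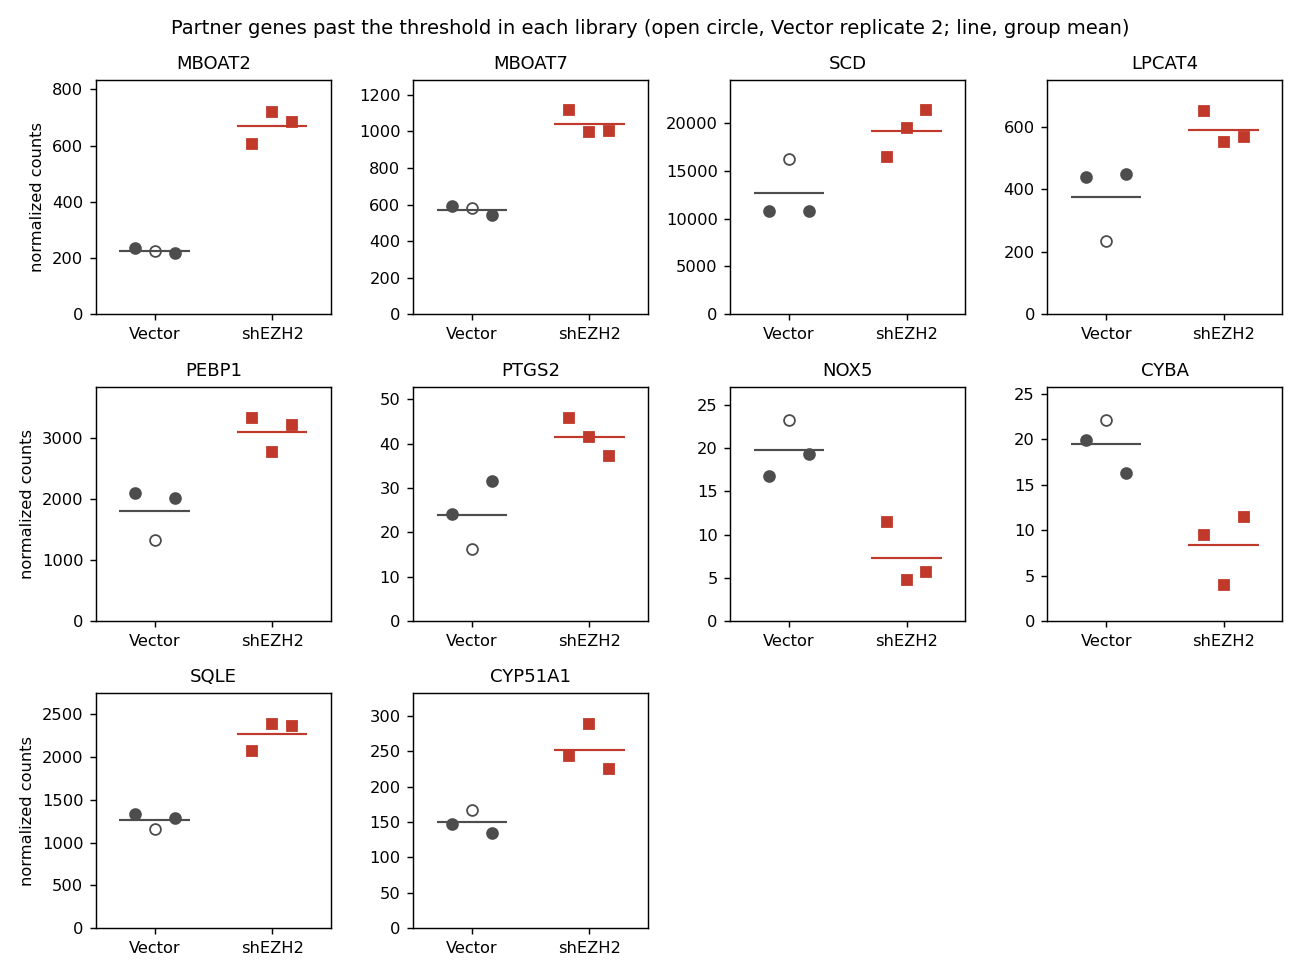
Normalized counts (linear axes from 0) of the 10 partner genes past the threshold, in each of the 3 Vector and 3 shEZH2 libraries, with group means as lines. The groups are apart in all 10, and the open circle of Vector replicate 2 lies far from the other Vector libraries in SCD, LPCAT4 and PEBP1.

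Of the NADPH oxidase family and its partners, 7 of 12 genes with values were tested, and 2 of them were called, both lower. CYBA encodes p22phox, the membrane partner that NOX4 needs. It fell from 19.9, 22.1 and 16.3 normalized counts in the Vector libraries to 9.52, 3.99 and 11.5 in the shEZH2 libraries (-1.22 on the log2 scale, SE 0.43, limma adjusted p = 0.155). NOX5, a calcium-activated oxidase, fell by 1.39 on the log2 scale (SE 0.41, limma adjusted p = 0.103), from a mean of 19.8 to 7.32 normalized counts. Both are near the lower limit of what was tested. The log2 fold changes were -1.13 for CYBA and -1.27 for NOX5 without Vector replicate 2. The abundant regulators RAC1 and POLDIP2 had log2 fold changes of 0.11 and 0.10.

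Of 4 tested lipoxygenases and partners, 2 were called higher. PEBP1, a scaffold protein known to bind lipoxygenases, rose by 0.80 on the log2 scale (adjusted p = 0.0738 in limma), and by 0.59 without Vector replicate 2. PTGS2, a prostaglandin synthase often used as a marker of ferroptosis, rose by 0.81 (adjusted p = 0.164) from a mean of 24.0 to 41.5 normalized counts, and stood at 0.57, short of the threshold, without that library. Among 9 tested genes of ether lipid synthesis, 0 passed the threshold in either direction, 0 had an unadjusted p under 0.05 in limma, and the log2 fold changes ran from -0.24 to 0.24.

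All 8 electron transfer partners of POR had log2 fold changes above 0, as did 8157 of the 15251 genes tested. The 8 partners ran from 0.21 to 0.85 with a median of 0.46, and 2 were called higher. With Vector replicate 2 left out, 7 of 8 were above 0 and the median was 0.26, with HMOX1 at -0.075. SQLE, the squalene epoxidase that POR supplies with electrons, rose by 0.85 (SE 0.13, limma adjusted p = 0.0203), and CYP51A1, a sterol demethylase that also draws on POR, rose by 0.75 (adjusted p = 0.0525). They rose by 0.79 and 0.83 without Vector replicate 2. CYB5R1, a reductase implicated in lipid peroxidation beside POR, had a log2 fold change of 0.48 (limma adjusted p = 0.180) and was short of the threshold. It was at 0.34 without Vector replicate 2.

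Of the 19 genes of coenzyme Q synthesis and quinone reduction, 0 were called by limma at the threshold, although 2 higher and 1 lower gene had an unadjusted p under 0.05. COQ2, which joins the ring of coenzyme Q to its side chain, had a log2 fold change of 0.50 (limma adjusted p = 0.0982). Without Vector replicate 2, its lowest library, COQ2 was at 0.40 (limma adjusted p = 0.0310). NQO1, the cytosolic quinone reductase, had 20413, 9918 and 20380 normalized counts in the Vector libraries and 11620, 10724 and 11098 in the shEZH2 libraries. Vector replicate 2 lay below all shEZH2 libraries and the other Vector libraries lay far above them. With all libraries the log2 fold change of NQO1 was -0.53 (limma adjusted p = 0.312), and without Vector replicate 2 it was -0.87 (adjusted p = 3.02e-05 in limma). NQO1 thus turned on 1 library, in which AIFM2 was low as well.

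In pyrimidine synthesis, 0 of 5 genes tested were called by limma at the threshold, with an unadjusted p under 0.05 for CTPS1 (log2 fold change 0.42) and CMPK1 (-0.57). CMPK1 was called lower, at -0.63 (limma adjusted p = 0.00245), when Vector replicate 2 was left out. CAD and UMPS, the enzymes before and after DHODH, had log2 fold changes of -0.30 and -0.10 (limma adjusted p = 0.373 and 0.639), and CAD was at -0.11 without Vector replicate 2. Of 6 genes of tetrahydrobiopterin synthesis and recycling, 0 passed the threshold and 0 had an unadjusted p under 0.05 in limma. SPR and QDPR, which complete and recycle tetrahydrobiopterin, had log2 fold changes of 0.45 and 0.44, which were 0.09 and 0.10 without Vector replicate 2. GCHFR, the feedback inhibitor of GCH1, had 8.59 to 18.8 normalized counts and a log2 fold change of -0.24 (limma adjusted p = 0.737).

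Among other lipid hydroperoxide enzymes, 0 of 5 were called by limma at the threshold, and 1 had an unadjusted p under 0.05, TXNRD1 (log2 fold change -0.48). GPX4, which reduces phospholipid hydroperoxides, had 1509, 475 and 1358 normalized counts in the Vector libraries and 1971, 1306 and 1441 in the shEZH2 libraries. Its log2 fold change was 0.64 (limma adjusted p = 0.389), and 0.11 without Vector replicate 2, which held the lowest value. PRDX6 had log2 fold changes of 0.30 with that library and -0.16 without it. SLC7A11, which imports the cystine that GPX4 depends on, fell by 1.07 on the log2 scale (adjusted p = 0.0331).

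**Figure D5:**
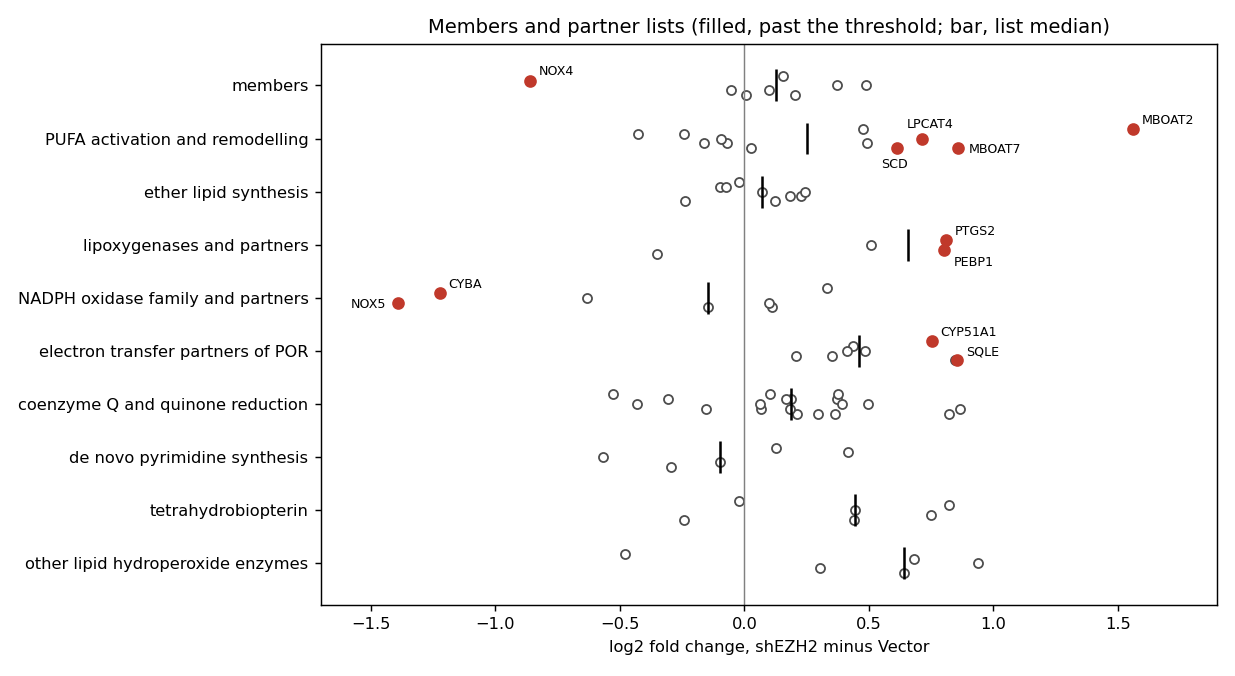
Log2 fold change, shEZH2 minus Vector, of the members and of the tested genes of 9 partner lists (filled points, past the threshold; bars, list medians). MBOAT2 is the highest gene shown, NOX5 and CYBA the lowest, and NOX4 is the only filled member.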

How the data were processed

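Total RNA of 6 HMV-II libraries was poly(A)-selected and sequenced on an Illumina NovaSeq 6000. Reads on each gene were counted by the authors (featureCounts v1.5.0-p3), and the submitters' notes name DESeq2 1.20.0 and hg19. The deposited table holds signal values, counts divided by one size factor per library, and their group means. All values (100%, within 0.01 of a whole number) were whole multiples of the smallest value of their library, which recovered the reads. The table also holds the authors' log2 fold changes, p-values and adjusted p-values, which were not used, and 0 columns of single libraries were left out. Its coordinates are GRCh38, since 47.7% of 20633 genes share a start or end with GRCh38.p14 and 0.708% with GRCh37.

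A linear model (limma 3.58.1, mean-variance trend, no replicate block) was fitted on the scale log2(normalized count + 1), keeping 15251 genes whose mean was 10 or more, with Benjamini-Hochberg adjustment over them. Exact permutation tests covered the 20 arrangements of 3 against 3 libraries. DESeq2 1.42.0 and edgeR 4.0.16 (quasi-likelihood) on the recovered reads, other scalings, pseudocounts and filters, and each library left out in turn were tried as alternatives. The share of true changes in these data that these fits would miss is not known. The members, lists and tests were chosen with earlier results of these data known. Named genes are the members, fixed relatives of them, up to 4 called genes per list, EZH2 and SLC7A11, and the 3 genes nearest in profile to the highest and the lowest member. TXNRD1, CTPS1, CMPK1, MBOAT1, RAC1, POLDIP2 and HMOX1 were named after their values were seen. The result of 1 gene of the lists is not reported here. Promoter windows are those of RefSeq (GRCh38.p14). R 4.3.3 and Python were used.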

Additional observations from a re-analysis of the deposited data

How the results depend on the processing

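NOX4 was below 0 and called under each of the 18 refits, with a log2 fold change from -1.11 to -0.70. In the main fit NOX4 was short of the stricter thresholds, an adjusted p under 0.05 (0.107 in limma) and a log2 fold change over 1 (-0.86). Under either of these thresholds, 0 members were called in that fit. ACSL3, POR and GCH1 stayed above 0 under all refits. The near-zero members did not keep a direction. ACSL4 was at -0.020 with DESeq2 and with edgeR's RLE factors and at -0.032 with upper-quartile factors, and with array weights LPCAT3 was at 0.26, AIFM2 at -0.094 and DHODH at -0.055. With each library left out, the log2 fold changes ran from -0.11 to 0.16 for ACSL4, -0.23 to 0.17 for LPCAT3, -0.045 to 0.33 for AIFM2, -0.030 to 0.17 for DHODH and 0.40 to 0.59 for GCH1, and 1 to 2 members were called, GCH1 being the second without shEZH2 replicate 1. Array weights gave an adjusted p under 0.05 to 4 members (46.7% of all genes). Over all genes, 1151 were called higher and 1078 lower, 345 and 279 with an adjusted p, and 463 and 335 with a log2 fold change over 1. Of the list genes, 8 were called higher (3 with an adjusted p, 1 with a log2 fold change over 1, and 5 to 12 with a library left out, the 5 without shEZH2 replicate 2 or 3). The 2 called lower became 4 with DESeq2, with upper-quartile factors and with array weights, 5 with the length trend removed, 0 with a mean of at least 50 or an adjusted p, and 1 to 4 with a library left out. Of the called genes 51.6% were higher, and 43.9% with upper-quartile factors. The causes were not tested. NOX4 rests on 47 to 104 reads per library, which limits its precision.

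Samples with the same replicate number did not deviate together in every pair (r = 0.28, 0.22 and -0.11). With 3 libraries per group, these values cannot decide whether samples with the same number were processed together. A fit with a replicate block is therefore given beside the main fit, which has none. With a replicate block, NOX4 stayed called at -0.86 (limma adjusted p = 0.113), while ACSL3 and GCH1 no longer had an unadjusted p under 0.05 (limma adjusted p = 0.221 and 0.212).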

Other observations

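Genes whose levels followed those of NOX4 and GCH1 across the 6 libraries were found by the root mean square distance between centred log2 profiles, among 11890 other genes averaging 50 normalized counts or more. The libraries include Vector replicate 2, so a shared departure of that library enters the distance, and the distances are a description of these 6 libraries. Nearest to NOX4 was SERPINE2, a secreted serine protease inhibitor, at a distance of 0.07, with 84028, 51470 and 85233 normalized counts in the Vector libraries (replicates 1 to 3) and 36665, 37984 and 37903 in the shEZH2 libraries. It was followed by TYR, the tyrosinase of pigment synthesis (0.09), and TXNIP, the thioredoxin-interacting protein (0.10), with log2 fold changes of -0.97 and -0.92. Each of these genes has its lowest Vector value in replicate 2, as NOX4 does, a trait that entered their choice.

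Nearest to GCH1 was CAV1, the main protein of caveolae, at a distance of 0.02, with 2489, 1952 and 2322 normalized counts in the Vector libraries (replicates 1 to 3) and 2744, 3402 and 3240 in the shEZH2 libraries. CDK8, a kinase of the Mediator complex (0.04), and RGS7, a regulator of G protein signalling (0.06), came next, with log2 fold changes of 0.49 and 0.50. In all of these genes shEZH2 replicate 1 was the shEZH2 library nearest to the Vector libraries, a trait of GCH1 that entered their choice.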
